A study of Mus musculus with 14 samples.

Results

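Binding of pSMAD1/5/9 and SMAD4 and acetylation of histone H3 at lysine 27 (H3K27ac) were examined at the genes for the FGF receptors Fgfr1, Fgfr2, Fgfr3, Fgfr4 and Fgfrl1, the Sprouty genes Spry1, Spry2 and Spry4, and the ligand gene Fgf2. These 9 genes, of 21757 protein-coding genes, were chosen by name and not by their peaks, but with earlier results of these data known. A peak was counted at a gene when it overlapped the canonical GENCODE transcript on GRCm39, extended by 20 kb on both sides, and such a gene is called bound here. The cells were PAX7-GFP muscle stem cells (MuSCs) from several muscles of 9-week-old female mice of the genotype C57BL/6N(Tg(Pax7-EGFP)Tajb), sorted by FACS and grown in medium with serum, 2.5 ng/mL basic FGF and 10 ng/mL leukemia inhibitory factor. All cells were then starved for 6 h in serum-free medium with 200 ng/mL soluble BMPR1A-Fc, followed by 1 h with BMP6 at 100 ng/mL or with its vehicle, which was 4 mM HCl containing 0.1% BSA. The labels do not say whether basic FGF was in the serum-free medium. CUT&Tag, in which an antibody directs the Tn5 transposase to chromatin, was performed on 100000 fixed cells per library with 2 biological replicates per antibody and condition. The 12 libraries gave 6 consensus peak lists, 1 per antibody and condition. A list holds the peaks that passed an irreproducible discovery rate (IDR) of 0.05 between both replicates, so absence from a list means that no peak passed this threshold.

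FGF receptors are receptor tyrosine kinases that signal through RAS and ERK, and basic FGF (FGF2) is a mitogen of cultured MuSCs. Sprouty proteins are feedback inhibitors of this pathway, and Spry1 is known for its role in the return of MuSCs to quiescence. BMP receptors phosphorylate SMAD1, SMAD5 and SMAD9, which enter the nucleus with SMAD4, whereas H3K27ac marks active promoters and enhancers.

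The sequences at the strongest pSMAD1/5/9 peaks after BMP6 show where these factors were found. They are given for the 5 genes that had such a peak, on the plus strand of GRCm39, as 200 bp around the summit, shortened to 171 bp for Fgf2. The windows are chr13:55316899-55317098 for Fgfr4, chr8:26033499-26033698 for Fgfr1, chr14:106134937-106135136 for Spry2, chr3:37708385-37708584 for Spry1 and chr3:37473801-37473971 for Fgf2. Capitals mark a GC-rich SMAD site (GGCGCC or GGAGCC) or the E-box CAGCTG, a sequence that myogenic bHLH factors recognize, where the window held one.
Fgfr4: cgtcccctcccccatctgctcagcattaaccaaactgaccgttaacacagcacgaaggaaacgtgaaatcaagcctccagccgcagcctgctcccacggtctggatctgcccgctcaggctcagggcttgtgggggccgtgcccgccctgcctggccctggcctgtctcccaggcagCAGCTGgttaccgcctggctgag
Fgfr1: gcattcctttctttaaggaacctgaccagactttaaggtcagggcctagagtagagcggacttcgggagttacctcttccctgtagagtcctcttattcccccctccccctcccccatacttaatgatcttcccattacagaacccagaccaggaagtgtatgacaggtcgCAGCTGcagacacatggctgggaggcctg
Spry2: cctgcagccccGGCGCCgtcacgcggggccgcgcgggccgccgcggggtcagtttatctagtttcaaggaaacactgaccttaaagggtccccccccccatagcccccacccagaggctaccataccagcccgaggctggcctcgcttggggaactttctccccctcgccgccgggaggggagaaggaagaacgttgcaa
Spry1: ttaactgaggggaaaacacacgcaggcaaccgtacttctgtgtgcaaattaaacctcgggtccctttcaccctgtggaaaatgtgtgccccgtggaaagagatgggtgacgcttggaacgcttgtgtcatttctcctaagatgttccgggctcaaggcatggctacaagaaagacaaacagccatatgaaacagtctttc
Fgf2: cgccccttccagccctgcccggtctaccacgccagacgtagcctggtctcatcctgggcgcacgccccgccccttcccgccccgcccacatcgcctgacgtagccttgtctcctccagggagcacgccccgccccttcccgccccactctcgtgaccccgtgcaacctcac
The Fgfr4 and Fgfr1 windows each held an E-box, the Spry2 window held GGCGCC, and the Spry1 and Fgf2 windows held none of the motifs searched. Among all 11 pSMAD1/5/9 windows of 200 bp at these genes, 3 held GGCGCC or GGAGCC on either strand, beside 30.2% of the 7339 windows of the list. The E-box CAGCTG was in 4 windows, 2 of them at Fgfr4 and 2 at Fgfr1, beside 31.1% of the list. The AP-1 site TGACTCA or its reverse TGAGTCA was in 1 window, at Fgfr1, beside 15.5% of the list. The SMAD palindrome GTCTAGAC was in 0 windows, beside 0.518% of the list. The GC content of the windows had a median of 60.0% (48.5% to 71.5%), against 56.0% in the list. These are matches of letters and do not show which protein was bound.

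After BMP6 stimulation, 5 of the 9 genes were bound by pSMAD1/5/9, namely Fgfr4, Fgfr1, Spry1, Spry2 and Fgf2, where 29.1% of all genes were bound. In control cells 3 were bound, Fgfr4, Spry2 and Fgf2, and the share over all genes was 5.97%. SMAD4 was found at 6 genes in BMP6-stimulated cells (39.3% of all genes) and at 4 in control cells (30.8%). H3K27ac peaks were found at all 9 genes in both conditions, beside 74.8% of all genes after BMP6 and 73.4% in control cells. Fgfr1 and Spry1 were bound by pSMAD1/5/9 only in the list of BMP6-stimulated cells, a pattern that 23.5% of all genes had, and 0 genes had the opposite pattern, which 0.400% of all genes had. For SMAD4, Fgfr2 and Fgfrl1 were bound only in the list of BMP6-stimulated cells, as were 12.8% of all genes, and 0 genes only in that of control cells, as were 4.24%. With 9 genes and 1 consensus per condition, there is no test of these shares. The pSMAD1/5/9 list of BMP6-stimulated cells held 7339 peaks and that of control cells 949, and with only the 949 strongest peaks of the former, 0 genes were bound in BMP6-stimulated cells alone, and Spry2 was bound in control cells alone. The same step for SMAD4, with 8577 peaks in both lists, also left 0 genes. At an IDR of 0.01 the genes bound by pSMAD1/5/9 only after BMP6 were Spry2 and Fgf2 instead.

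**Figure D1:**
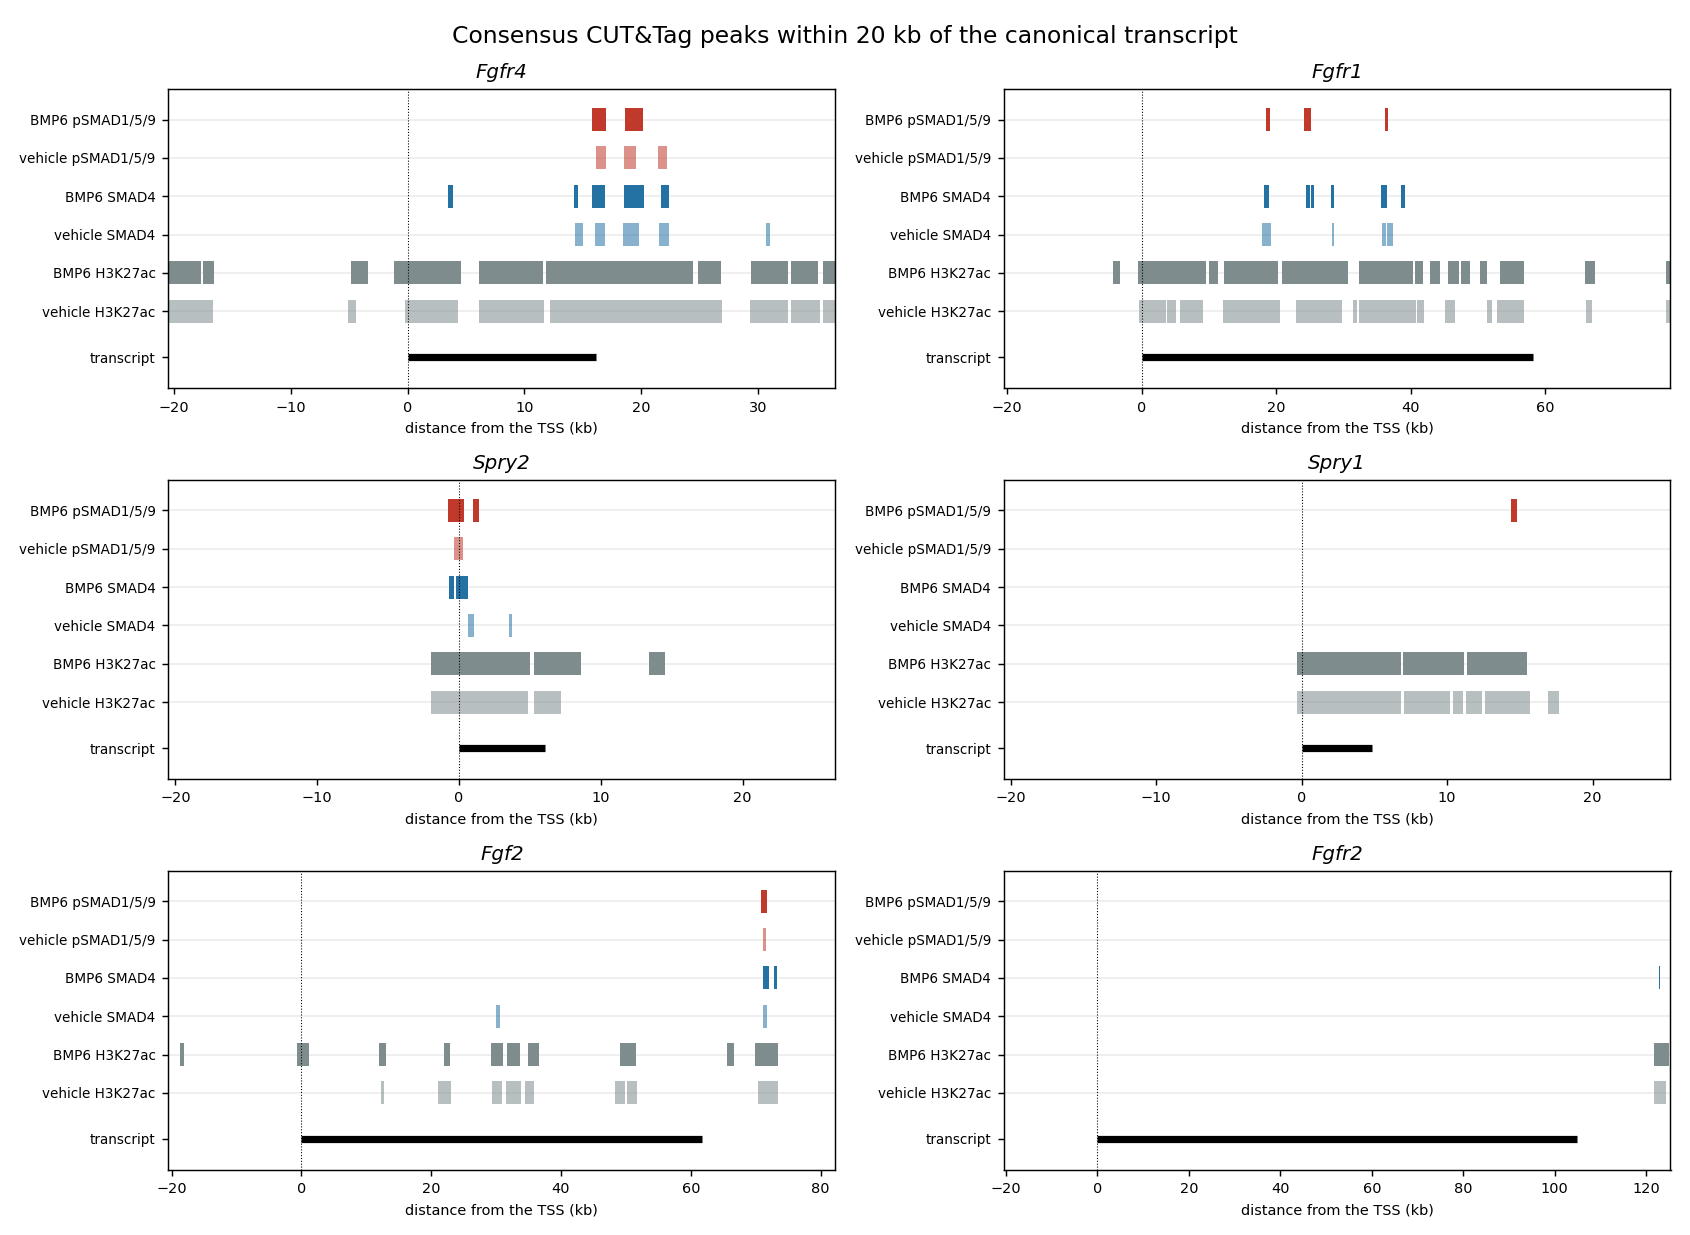
Peaks of the 6 consensus lists at 6 of the genes, by distance from the TSS in kb along the direction of transcription. Each block is a peak, red for pSMAD1/5/9, blue for SMAD4 and grey for H3K27ac, paler for vehicle, and the black bar is the canonical transcript. Blocks for pSMAD1/5/9 lie just past the end of Fgfr4, in intron 2 of Fgfr1, at the TSS of Spry2 and 14588 bp past the TSS of Spry1.

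Fgfr4, which with Fgfr1 is a main FGF receptor of MuSCs, had the strongest pSMAD1/5/9 peaks of the genes. The gene (ENSMUSG00000005320.11) spans 55300453 to 55316572 of chromosome 13, on the plus strand, and has 18 exons. A pair of sites downstream of its 3′ end was present in all 4 SMAD lists. At the first, the pSMAD1/5/9 summit of BMP6-stimulated cells was 16546 bp from the TSS and 427 bp past the end of the transcript, and the peak ranked 59 among 7339 by signal. Both replicates placed it high, at ranks 95 and 43, with signals of 53040 and 42526. In control cells the peak at the same site ranked 22 among 949, and the replicates had ranks of 20 and 34 and signals of 49624 and 33552. No source states that signals can be compared between lists, so no fold between conditions is given. Ordered by the strongest pSMAD1/5/9 peak, Fgfr4 was gene 83 of the 6322 bound genes in BMP6-stimulated cells and gene 33 of 1299 in control cells. It was thus near the top of both lists.

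At the second Fgfr4 site, 2937 bp past the end of the transcript, pSMAD1/5/9 ranked 103 after BMP6 and 48 in control cells. SMAD4 ranked 342 and 426 of 12860 at the first and the second site in BMP6-stimulated cells, and 101 and 126 of 8577 in control cells. These 4 pSMAD1/5/9 peaks and 4 SMAD4 peaks passed the stricter IDR of 0.01. Around this pair the conditions differed in the weaker peaks. Another pSMAD1/5/9 peak of BMP6-stimulated cells, 3828 bp past the end and merged with the second site, ranked 4707, did not pass the IDR of 0.01, and its replicates disagreed, at ranks of 3346 and 6815. A pSMAD1/5/9 peak 5705 bp past the end was listed only in control cells, at rank 325 of 949, and did not pass the IDR of 0.01 either. SMAD4 was listed there in both conditions, at rank 3021 after BMP6 and 1479 in control cells. No pSMAD1/5/9 summit lay inside the gene, although the peak at the first site reached into its last exon, while SMAD4 had a peak in exon 3 after BMP6 (rank 11265) and near intron 14 in both conditions (7631 after BMP6 and 5330 in control cells).

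Fgfr1, the other main FGF receptor known from MuSCs, differed from Fgfr4 in the place and strength of its peaks. It spans 26008745 to 26066824 of chromosome 8, on the plus strand (ENSMUSG00000031565.21). All 4 of its pSMAD1/5/9 peaks lay in intron 2, and all came from BMP6-stimulated cells. Their summits were 18618, 24448, 24854 and 36292 bp from the TSS, and they ranked 5058, 5623, 4163 and 6333 of 7339, in the weaker part of the list. None of the 4 passed the IDR of 0.01. The strongest of them ranked 3584 by the first replicate and 4796 by the second. Each overlapped SMAD4 after BMP6, and SMAD4 was also present in control cells at 2 of the 3 merged sites that these peaks form. In all, SMAD4 had 6 peaks at Fgfr1 in BMP6-stimulated cells, the strongest at rank 2997 with replicate ranks of 2156 and 6809, and 5 in control cells, the strongest at rank 2287 with replicate ranks of 3089 and 1487. At the middle site, 24628 bp from the TSS, SMAD4 was listed only after BMP6 (rank 4038).

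Fgfr2 and Fgfr3, receptors best known from epithelia and the skeleton, had 0 pSMAD1/5/9 peaks in either condition. The only SMAD peak at Fgfr2 was a SMAD4 peak of BMP6-stimulated cells 18160 bp past its 3′ end, near the edge of the region and at rank 11256 of 12860. With all basic transcripts, 1 of which stretches the span of Fgfr2 from 104802 to 2961609 bp, the gene was bound by pSMAD1/5/9 and SMAD4 in both conditions. Fgfr3 had 0 SMAD4 peaks. Fgfrl1 encodes a receptor without the tyrosine kinase domain. A SMAD4 peak 168 bp upstream of its TSS was listed only after BMP6, at rank 11343, with replicate ranks of 11411 and 10239. Neither of these SMAD4 peaks passed the IDR of 0.01.

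Among the Sprouty genes, Spry2 was the only one with SMAD peaks at the promoter. It spans 106128766 to 106134792 of chromosome 14, on the minus strand (ENSMUSG00000022114.7). In BMP6-stimulated cells the main pSMAD1/5/9 summit was 245 bp upstream of the TSS, at rank 1430, with replicate ranks of 1622 and 1309 and signals of 18910 and 15904. The control peak there had its summit 36 bp downstream of the TSS, at rank 564 of 949, with replicate ranks of 514 and 607 and signals of 16271 and 11866. The promoter was therefore occupied in both lists, but in the weaker part of the control list, where its peak did not pass the IDR of 0.01. SMAD4 peaked 101 bp downstream of the TSS after BMP6 (rank 1706) and 527 bp upstream of it (rank 8197). In control cells no SMAD4 peak overlapped this promoter site. The nearest was in intron 1, at rank 5465, with its summit 919 bp from the canonical TSS and 90 bp from another annotated Spry2 TSS. It reached position 106134138, and the promoter site began at 106134172, so their separation rests on the borders of the peaks. A second pSMAD1/5/9 peak of BMP6-stimulated cells lay 1331 bp into the gene (rank 3689) and overlapped that control SMAD4 peak, but its replicates were far apart, at ranks of 5459 and 2137.

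Spry1 had 1 SMAD peak in all 4 lists together. It spans 37693897 to 37698755 of chromosome 3, on the plus strand (ENSMUSG00000037211.14), and the peak was a pSMAD1/5/9 peak of BMP6-stimulated cells 9730 bp past its 3′ end. It ranked 4829, with replicate ranks of 5557 and 3629, did not pass the IDR of 0.01, and was the only one of the 20 merged SMAD sites with pSMAD1/5/9 and no SMAD4 in either condition. The peak lay within an H3K27ac peak in both conditions, at rank 6072 after BMP6 and 8700 in control cells. Spry4, a Sprouty gene on chromosome 18, had 0 SMAD peaks.

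At Fgf2, which encodes the ligand, the strong SMAD site belonged by position to its neighbours. The gene spans 37402495 to 37464257 of chromosome 3, on the plus strand (ENSMUSG00000037225.15), and its region also takes in the starts of Nudt6 and Afg2a. The pSMAD1/5/9 summit of BMP6-stimulated cells was 9644 bp past the end of Fgf2 and 83 bp from the TSS of Afg2a. It ranked 466 after BMP6, with replicate ranks of 688 and 318 and signals of 28481 and 26529. In control cells it ranked 233 of 949, with replicate ranks of 273 and 196 and signals of 22999 and 21320, and SMAD4 ranked 697 and 585 there after BMP6 and in control cells. When only peaks whose nearest TSS was that of the gene were kept, Fgf2 had no pSMAD1/5/9 peak in either condition. Its own body held a single SMAD peak, a SMAD4 peak of control cells in intron 1, 30264 bp from the TSS, at rank 4146.

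**Figure D2:**
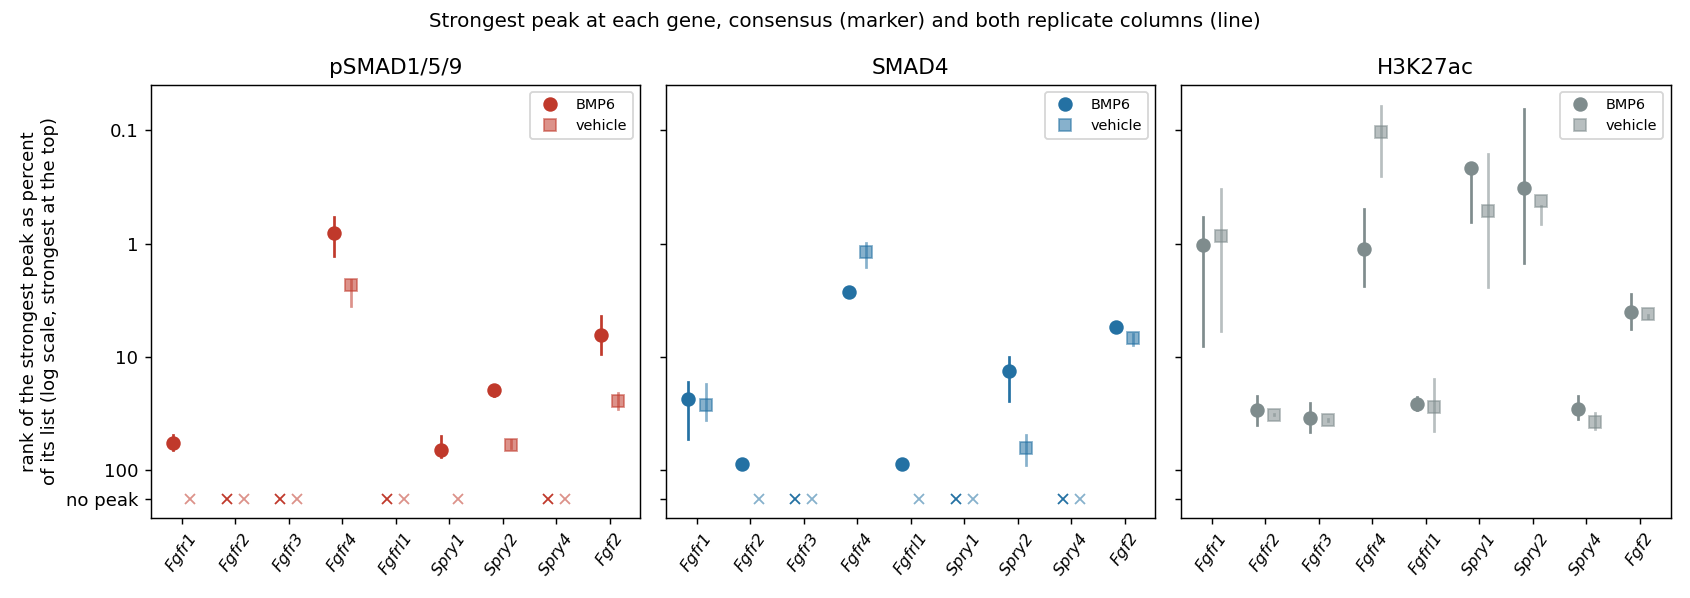
Rank of the strongest peak at each gene as percent of its list, on a log scale with the strongest at the top, for BMP6 (circles) and vehicle (squares). Lines span the ranks by each replicate, and crosses mark genes without a peak. In pSMAD1/5/9, Fgfr4 sits at 0.804% after BMP6 and 2.32% in vehicle, above Fgf2 at 6.35% and 24.6% and Spry2 at 19.5% and 59.4%, while Fgfr1 and Spry1 are at 56.7% and 65.8% after BMP6 with no vehicle peak.

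The order of the genes by their strongest pSMAD1/5/9 peak after BMP6 was Fgfr4, Fgf2, Spry2, Fgfr1 and Spry1. The replicate ranks did not overlap between Fgfr4, Fgf2, Spry2 and Fgfr1, but those of Fgfr1 and Spry1 did, so the last pair cannot be put in order. With these same strongest peaks ranked by signal per bp of width, Fgfr4 (239) and Fgf2 (499) still came first. The peaks of Spry1 (3661), Fgfr1 (4525) and Spry2 (4825) followed. These ranks do not reorder the genes, as another peak of a gene can be denser. The intronic peak of Spry2, with a signal of 19440 over 450 bp, was denser than the Spry1 peak, with 15630 over 429 bp. In control cells the order was Fgfr4, Fgf2 and Spry2, again without overlap of the replicate ranks. For SMAD4 after BMP6, Fgfr4 and Fgf2 also came first and did not overlap, and Spry2 and Fgfr1 overlapped. Per bp of width the first pair turned, with Fgf2 at rank 386 and Fgfr4 at rank 712.

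**Figure D3:**
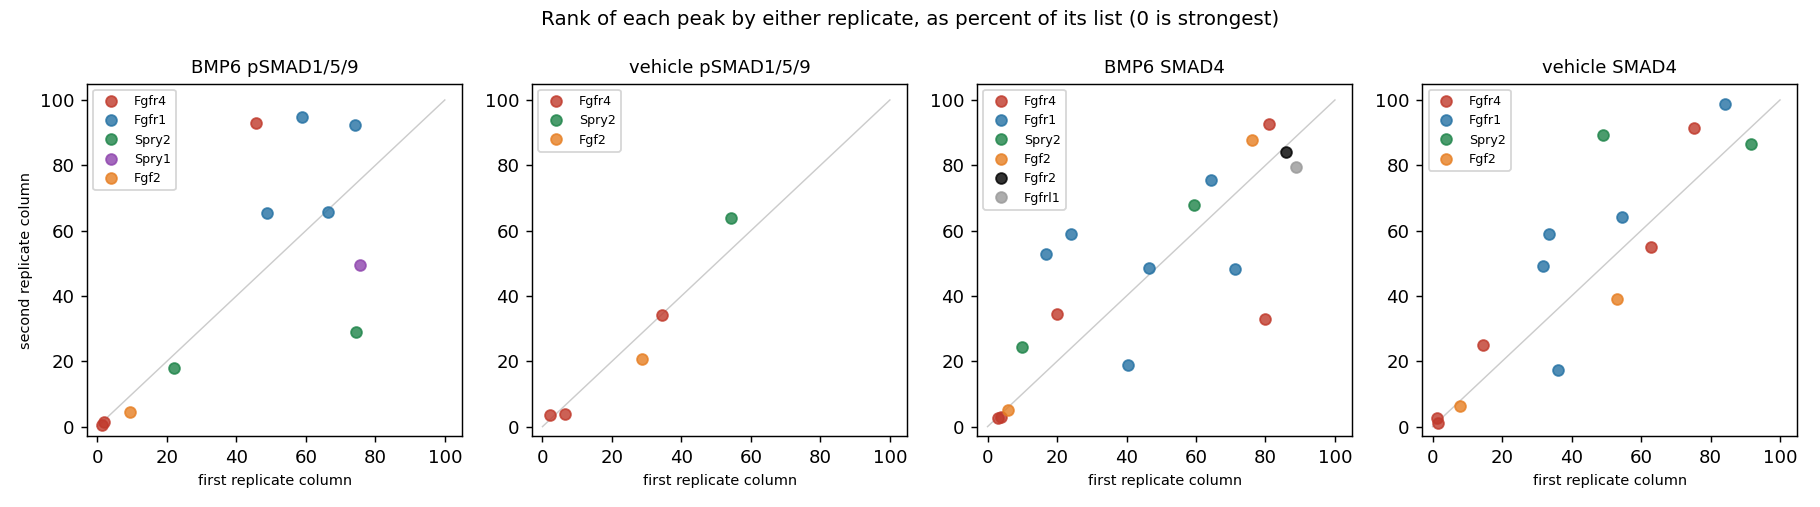
Rank of each SMAD peak at the genes by the first and by the second replicate, as percent of its list, with 0 the strongest and the line marking equal ranks. The Fgfr4 and Fgf2 peaks in the lower left corner of the panels lie near the line, while weaker peaks, such as that of Spry2 at rank 3689, lie far from it.

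Together the genes had 11 pSMAD1/5/9 peaks after BMP6 and 5 in control cells. Per 100 kb of region this was 1.67 and 0.759, against 0.587 and 0.0819 over the regions of all genes. SMAD4 had 17 and 14 peaks, or 2.58 and 2.13 per 100 kb, against 0.973 and 0.661. Most of these peaks were away from the promoters. A peak within 2 kb of the TSS was listed for 1 gene (Spry2) in either pSMAD1/5/9 list, beside 12% of all genes after BMP6 and 1.74% in control cells. In SMAD4 it was listed for 2 genes (Spry2 and Fgfrl1) after BMP6 and for 1 (Spry2) in control cells, beside 17.8% and 12.4% of all genes. Of the 11 pSMAD1/5/9 peaks after BMP6, 4 overlapped a control peak (36.4%, against 11.4% of the list), 2 at Fgfr4 and 1 each at Spry2 and Fgf2. For SMAD4 the share was 8 of 17 (47.1%, against 45.5%). SMAD4 peaks of BMP6-stimulated cells overlapped 9 of the 11 pSMAD1/5/9 peaks (81.8%, against 73.2% of the list), and the other 2 were the peak of Spry1 and the intronic peak of Spry2. Peaks of 1 gene share their surroundings and are not independent.

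By their strongest H3K27ac peak, the genes with pSMAD1/5/9 after BMP6 stood apart from those without it. The weakest of the former was Fgf2, at rank 3141 after BMP6 and 2825 in control cells. This peak lay at the TSS of Nudt6, as did the SMAD site. The strongest H3K27ac peak nearest to the TSS of Fgf2 itself ranked 16177 and 7735. The 2 measures are also not independent, as 98.2% of the pSMAD1/5/9 list after BMP6 overlapped H3K27ac. The order of the genes with pSMAD1/5/9 differed, as Spry1, weak in pSMAD1/5/9, had the best H3K27ac rank after BMP6, 167. With these same strongest peaks ranked per bp of width, the groups overlapped, with Fgfr3 at rank 40155 and Fgfr4 at rank 61864 after BMP6. Other peaks of a gene could be denser and were not compared in this way. The Fgfr4 peak had a signal of 12777 over 12600 bp, and another at this gene had 10017 over 2940 bp. SMAD4 after BMP6 divided the genes differently, being found at Fgfr2 and Fgfrl1 and not at Spry1. H3K27ac covered 65.2% of the Fgfr4 region after BMP6 and 62.8% in control cells, and 99.2% and 99.5% of all genes had less. Fgfr1 followed with 51.5% and 42.4%, and Spry1 with 34.5% and 35.7%. The median of all genes was 7.07% and 5.68%. The pair of downstream SMAD sites at Fgfr4 lay within 1 wide H3K27ac peak, of 12600 bp after BMP6 and 14800 bp in control cells, which ranked 870 of 78050 and 71 of 67790. Replicate ranks of this peak were 387 and 1835 after BMP6 and 173 and 42 in control cells. These are ranks in lists of different length, and the interval of the control peak was divided between 2 peaks in the list of BMP6-stimulated cells, so the ranks are not read as a difference. The Sprouty genes Spry1 and Spry2 had some of the strongest H3K27ac peaks, over the gene itself. The peak of Spry1 was 7140 bp wide after BMP6 and 7100 bp in control cells, at ranks 167 and 353, and that of Spry2 was 7000 and 6900 bp wide, at ranks 251 and 284. The signal grows with the width of a peak, and per bp of width the Fgfr4 peak ranked 61864 after BMP6 and 42657 in control cells, that of Spry1 7949 and 19126, and that of Spry2 10486 and 16128. By contrast, Fgfr2, Fgfr3, Fgfrl1 and Spry4 had no H3K27ac peak stronger than rank 20164 after BMP6 or 18874 in control cells, and coverage at Fgfr2 and Spry4 was 2.07% and 5.08% after BMP6, below the median of all genes.

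**Figure D4:**
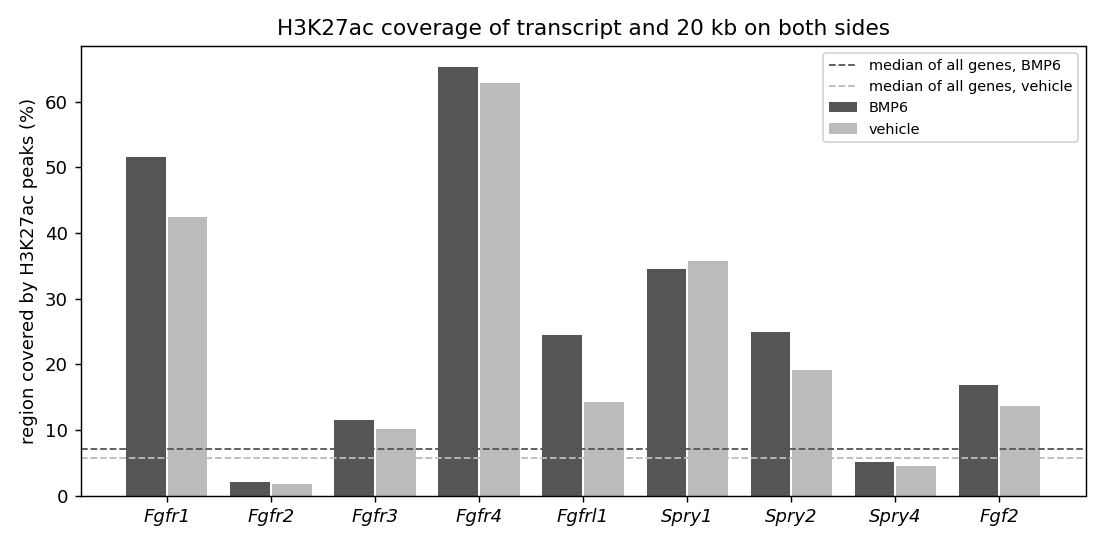
Percent of each gene's region (transcript with 20 kb on both sides) covered by H3K27ac peaks, dark bars for BMP6 and light bars for vehicle, with dashed lines at the median of all genes. Fgfr4 at 65.2% and 62.8% and Fgfr1 at 51.5% and 42.4% stand highest, and Fgfr2 and Spry4 lie below the median in both conditions.

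An H3K27ac peak within 2 kb of the TSS was listed for 8 of the 9 genes after BMP6 and for 7 in control cells, beside 55.1% and 53.0% of all genes. The gene without one in either list was Fgfr2, and Fgf2 had one only after BMP6, at rank 42674 of 78050. Both statements hold for the canonical TSS only. With the TSSs of all basic transcripts, all 9 genes had such a peak in both conditions. For Fgfr2 it lay outside the region used here. The only H3K27ac peak of that region after BMP6 was 118324 bp from the nearest basic TSS of Fgfr2. All 11 pSMAD1/5/9 peaks of BMP6-stimulated cells overlapped H3K27ac, as did 98.2% of the list. At these genes 42 of the 56 H3K27ac peaks after BMP6 overlapped 1 of control cells (75.0%, against 72.0% of the list).

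The label of the cells was checked on H3K27ac peaks at the TSS of marker genes, which were the same in number in both conditions. All 6 MuSC markers had one, among them Pax7, Myf5 and Myod1, and so did 4 of 5 genes of differentiated muscle, among them Myog. Of the markers of other cells, 0 of 3 fibro-adipogenic, 0 of 3 endothelial, 0 of 2 mural and 1 of 3 immune genes (Cd68) had one, while Ptprc had none. Consensus lists cannot tell whether a peak came from all cells or from some of them.

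The wider FGF pathway was described with 56 other genes, of which 55 were matched. After BMP6, 14 were bound by pSMAD1/5/9 (25.5%, beside the 29.1% of all genes), and 2 in control cells (3.64%, beside 5.97%). SMAD4 was found at 24 of them after BMP6 and 19 in control cells (43.6% and 34.5%, beside 39.3% and 30.8% of all genes). H3K27ac was found at 48 in either condition (87.3%, beside 74.8% and 73.4%). By role, pSMAD1/5/9 was found after BMP6 at 3 of 21 ligands, 4 of 10 co-receptors and partners, 2 of 13 adaptors and kinases, 3 of 7 other feedback inhibitors and 2 of 4 transcriptional targets. Bound only in the list of BMP6-stimulated cells were 13 genes, a share near the 23.5% of all genes with this pattern, of which 7 with strong peaks are named. Map2k2 (rank 123) encodes the kinase MEK2, which acts downstream of the receptors. The target genes were Egr1 (220), an immediate early transcription factor, and Etv5 (2615), an ETS factor. Fgf22 (795) and Fgf16 (1845) encode ligands, and Sdc4 (853) and Sdc3 (1274) encode heparan sulfate proteoglycans that bind FGFs. The single gene bound only in the list of control cells was the feedback inhibitor Il17rd (rank 573 of 949), which is named because the count was 1. Spry2, at rank 1430 with a control peak, lay among these genes in strength, and Fgfr4, at rank 59, was above them.

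Genes with a like pattern were sought by the Euclidean distance over the 6 lists between the percentiles of the strongest peak, with 0 where there was no peak. For Fgfr4 the nearest were Pax7, which defines MuSCs, at a distance of 2.22, and Plec at 2.31. For Fgf2 they were Psmd4 (3.63) and Ap2a1 (5.01), and for Spry1 they were Psip1 (3.52) and Col4a6 (3.55). In all 6 lists the strongest peak of Fgf2 lay at the starts of Nudt6 and Afg2a, so its match describes that site. Myof (6.57) and Sun1 (7.30) were nearest to Fgfr1. Spry2 had no close neighbour, the nearest being Tfpt and Prpf31, with identical values, both at 14.4.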

How the data were processed

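Per the labels, CUT&Tag was performed on 14 samples. The 12 with a primary antibody entered 6 peak lists, and the 2 without one were not analysed here. According to the methods, the authors subsampled reads to the same depth within each antibody, aligned them to GRCm39 (the submitters' notes name Bowtie2 2.5.4, SAMtools 1.21 and bedtools 2.31.1), called peaks per replicate with JAMM, and joined the replicates by IDR at 0.05, using filtered peaks for the SMADs and all peaks for H3K27ac. The lists have 20 columns and no header. The deposited signal is a score without a fixed range, and it equalled the sum of both replicate columns for 100% of peaks. The deposited IDR is given as −log10, from which the threshold of 0.01 was read. The replicate columns carry no replicate number. The lists hold no read counts, and how many reads support a peak is unknown, and 2 replicates limit the precision.

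Peaks were looked up with pandas 2.3.3 and numpy 2.4.6 under Python 3.11.15. The genome sequence was taken through pysam 0.24.0, and matplotlib 3.10.9 made the figures. Genes were canonical transcripts of GENCODE M39, in place of the RefSeq Select isoforms named in the methods. Overlap meant at least 1 bp. Rank 1 is the strongest consensus signal of a list. Merged sites join overlapping peaks of the 4 SMAD lists. Sequence windows were cut where an annotated UTR began. Overlap counting and the motif search were tested on simulated peaks and windows. There was no test between conditions, since each has 1 consensus list per antibody. Named were the 9 genes, up to 8 genes of the wider list that were bound by pSMAD1/5/9 only after BMP6, taken by their strongest peak, and for each gene with pSMAD1/5/9 after BMP6 the 2 genes of the nearest pattern that do not share its strongest peak. Some results of the wider list and of the marker genes are not reported here. The genes, the lists and the motifs were chosen with earlier results of these data known. Alternatives covered the IDR threshold, the width of the region, the assignment by summit or nearest TSS, all basic transcripts, lists of equal length, the overlap, the TSS window, each replicate column alone, signal per width, and the motif window.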

Additional observations from a re-analysis of the deposited data

How the results depend on the processing

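No paired analysis was possible because no result comes from a test and the replicate columns carry no number. Leaving out a replicate could not be run for counts, which need IDR on both, and was done for ranks by each replicate column alone. The count of genes with pSMAD1/5/9 after BMP6 and not in control cells was 2 in the report, 1 within 5 kb and 0 with lists of equal length, and at an IDR of 0.01 it was also 2 but with Spry2 and Fgf2, whose control peaks did not pass it, in place of Fgfr1 and Spry1, whose peaks after BMP6 did not pass it. For SMAD4 the count was 1 at an IDR of 0.01, within 5 kb and with all basic transcripts, and 0 with lists of equal length. At an IDR of 0.01 this gene was Spry2, in place of Fgfr2 and Fgfrl1. Within 5 kb and with all basic transcripts it was Fgfrl1.

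At an IDR of 0.01, pSMAD1/5/9 had 4 peaks at 3 genes after BMP6 and 2 peaks at 1 gene in control cells, SMAD4 had 7 peaks in each condition, and the genes with a TSS peak were 0 for pSMAD1/5/9 in control cells and 1 and 0 for SMAD4. Of the remaining peaks after BMP6, 71.4% for SMAD4 overlapped a control peak and 100% for pSMAD1/5/9 overlapped SMAD4. Within 5 kb, pSMAD1/5/9 was at 3 genes after BMP6 and had 3 peaks in control cells, and within 50 kb H3K27ac had 87 and 75 peaks. With all basic transcripts, pSMAD1/5/9 had 22 peaks after BMP6, SMAD4 44 and 33, and H3K27ac 195 and 172, as a transcript of Fgfr2 then stretches its span from 104802 to 2961609 bp. Lists of equal length left 3 pSMAD1/5/9 peaks after BMP6. With an overlap of 50% of both peaks, 0 pSMAD1/5/9 peaks overlapped H3K27ac, whose peaks are far wider. A TSS window of 1.5 kb upstream and 0.5 kb downstream left 0 genes with SMAD4 in control cells, and the TSSs of all basic transcripts gave 3, and 2 for pSMAD1/5/9 after BMP6. GC-rich SMAD sites were in 1 window of 100 bp and 6 of 400 bp, and E-boxes in 0 of 100 bp. The other 104 recomputed counts and shares stayed within 1.5 times or within their Wilson interval. Of 137 recomputed ranks, 46 moved by more than the SD between the replicate columns. This SD came from the same 2 replicate ranks that served as alternatives. It is wide where they disagree, so the count is a weak measure of stability.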
